A study of Homo sapiens with 2 samples.

Results

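The Notch receptors and ligands were described as 10 genes: the receptor genes NOTCH1, NOTCH2, NOTCH3 and NOTCH4, the ligand genes JAG1, JAG2, DLL1, DLL3 and DLL4, and NRARP. They were found by gene symbol among the probe sets of a human Affymetrix array, and all 10 had a probe set of their own, out of 18417 genes measured. RNA came from H1299 cells, an established human line from a non-small cell lung cancer. H1299 has no p53 of its own, a transcription factor that damage to DNA and further stresses activate. The groups were H1299 cells given p53 and H1299 cells of a negative control, with 1 array each, and both are the same line. How p53 was introduced, for how long, and what the negative control received are not stated in the labels.

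Notch signalling passes between cells that touch. A ligand of the Jagged (JAG) or Delta-like (DLL) family on one cell binds a Notch receptor on the next, the receptor is cut by an ADAM protease and then by gamma-secretase, and its freed intracellular part enters the nucleus, where it joins the DNA-binding protein RBPJ and a Mastermind-like coactivator to switch on genes of the HES and HEY repressor families and NRARP. NRARP protein in turn lowers the signal by promoting loss of the intracellular part. In lung, the pathway is known for setting the balance of airway cell fates, and NOTCH1 has been described as a p53 target in keratinocytes.

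There were no replicates, so no value below carries an error or a p-value, and each difference describes these 2 arrays. Values are log2 intensities, and a difference is the log2 value of the p53 array less that of the control array. A gene was counted as higher or lower when this difference was at least 2-fold, and as dim where both arrays lay below 7.38, the median of all probe sets. The p53 label was checked with CDKN1A, the p21 gene, at 12.66 with p53 against 9.18 in the control, and with MDM2, the ligase gene of p53, at 13.59 against 10.87. Over the 11436 genes that were not dim, the standard deviation of the differences was 0.43 when estimated from the median absolute deviation, a figure that includes any change with p53 and so is no error between replicates. The H1299 cells had KRT8, KRT18, VIM and CDH2 far above the median in both arrays, while EPCAM, CDH1 and KRT19 were dim.

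The 3 members that were at least 2-fold higher with p53 were JAG2, NOTCH3 and NOTCH1. Their promoters are shown with that of NOTCH4, whose intensities were identical, so that no absence of change is claimed for NOTCH4. Promoters were looked at because the series concerns 5-hydroxymethylcytosine (5hmC). This base is made from methylated cytosine by oxidation and is found mostly where C precedes G (CpG). No 5hmC or methylation was measured here. Each sequence is the 250 bases before the annotated start of the gene in RefSeq (build GRCh38.p14), 5′ to 3′ on the strand of the gene, which is the minus strand for all 4, with each CpG in capitals. They lie at chr14:105168777-105169026 (JAG2), chr19:15200996-15201245 (NOTCH3), chr9:136546049-136546298 (NOTCH1) and chr6:32224068-32224317 (NOTCH4).
JAG2: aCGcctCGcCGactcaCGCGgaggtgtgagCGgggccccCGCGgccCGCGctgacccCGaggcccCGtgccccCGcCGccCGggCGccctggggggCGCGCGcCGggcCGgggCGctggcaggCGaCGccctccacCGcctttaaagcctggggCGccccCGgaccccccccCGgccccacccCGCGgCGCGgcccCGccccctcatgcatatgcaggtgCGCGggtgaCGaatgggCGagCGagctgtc
NOTCH3: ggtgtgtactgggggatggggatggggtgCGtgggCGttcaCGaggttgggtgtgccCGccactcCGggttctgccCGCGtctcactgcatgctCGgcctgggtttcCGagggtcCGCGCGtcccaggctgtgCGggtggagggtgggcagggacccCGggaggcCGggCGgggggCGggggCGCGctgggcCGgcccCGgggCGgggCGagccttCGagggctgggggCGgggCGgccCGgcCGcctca
NOTCH1: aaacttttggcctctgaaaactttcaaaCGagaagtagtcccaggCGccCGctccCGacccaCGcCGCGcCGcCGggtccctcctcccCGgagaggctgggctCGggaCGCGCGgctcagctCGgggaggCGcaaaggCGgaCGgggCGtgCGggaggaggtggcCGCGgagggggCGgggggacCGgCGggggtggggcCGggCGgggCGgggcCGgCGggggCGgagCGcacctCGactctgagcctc
NOTCH4: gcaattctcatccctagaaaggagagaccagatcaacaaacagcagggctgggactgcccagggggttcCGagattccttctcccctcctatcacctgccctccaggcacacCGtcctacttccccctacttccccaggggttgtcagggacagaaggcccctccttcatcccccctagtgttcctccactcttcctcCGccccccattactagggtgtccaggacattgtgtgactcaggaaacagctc

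Promoters of 8 of the 10 members were matched in the RefSeq table. JAG2 had 38 CpGs in this window, NOTCH1 had 33 and NOTCH3 had 28, against a median of 11 and an upper quartile of 23 over 35116 promoters of the same length. These promoters were not selected by type of gene or by presence on the array, so they are no matched set for the members. NOTCH4 had 3. Members without a 2-fold difference were on both sides of these values: NRARP had 39, NOTCH2 29, DLL4 20 and JAG1 17. A CpG-rich promoter was therefore common to the 3 higher members, but NRARP and NOTCH2 had one too. GC content was 81.6% for JAG2, 78.0% for NOTCH3 and 76.0% for NOTCH1, against a median of 58.0% over all promoters. Of the members without a 2-fold difference, NRARP had 78.4%, NOTCH2 72.8%, DLL4 70.0%, JAG1 68.4% and NOTCH4 58.0%. High GC content thus did not set the 3 higher members apart. The core motif of RBPJ, TGGGAA on either strand, was in none of the 8 windows and in 20.8% of all promoters. The consensus half-site of p53, which reads the same on both strands, was in none of the 8 and in 5.57% of all promoters, with exact matches only. The TATAAA box, searched on both strands, was in 10.7% of all promoters and, of the 8 members matched, in NRARP, starting 41 bases before the start site. A missing match says only that these letters are not in this window. No searched motif overlapped another in these windows.

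Of the 10 members, 3 were at least 2-fold higher with p53 (JAG2, NOTCH3 and NOTCH1), none was lower, and 7 were neither. Among all genes that were not dim, 8.21% were at least 2-fold higher and 5.79% at least 2-fold lower. At 3-fold, JAG2 and NOTCH3 were higher and no member was lower, against 3.93% higher and 1.53% lower of the genes that were not dim. At 1.5-fold NRARP joined the 3 and again no member was lower, against 14.4% higher and 15.5% lower. The median difference of the 10 members was 0.11, against 0.00 over all genes measured. DLL4 was dim in both arrays, and 9 members passed the intensity filter. The 10 genes were chosen with earlier results of these data known, so the counts describe them and test nothing.

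**Figure D1:**
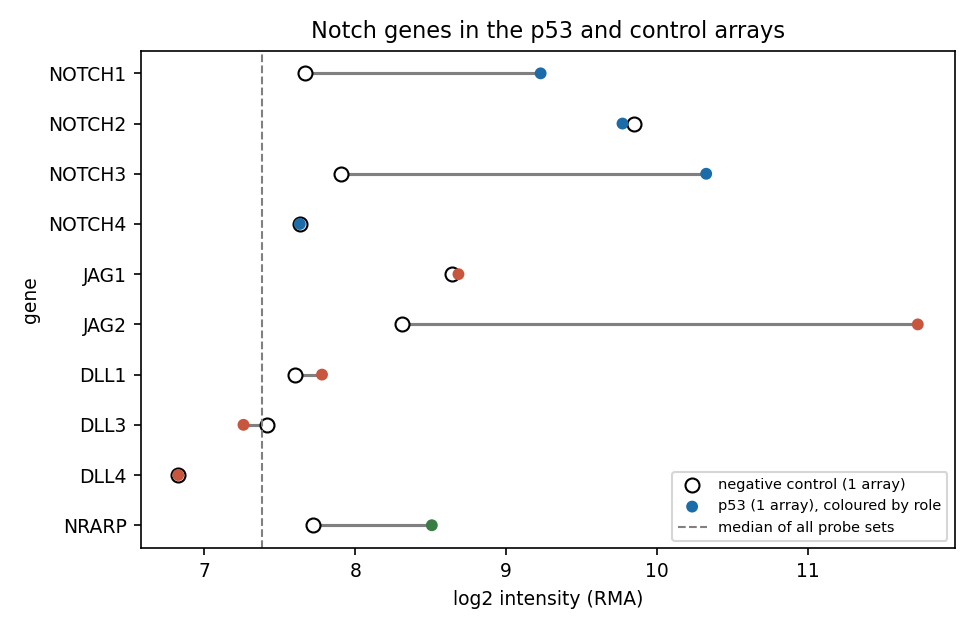
Log2 intensity of each of the 10 genes in the negative control array (open circles) and the p53 array (filled circles; receptors blue, ligands red, NRARP green), with the median of all probe sets, 7.38, as a dashed line. JAG2, NOTCH3 and NOTCH1 lie far to the right with p53, NRARP less so, and the other 6 pairs of points lie close together or on each other.

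Among the receptors, NOTCH3 and NOTCH1 were higher with p53, NOTCH2 was not, and NOTCH4 was listed with equal values. NOTCH3, a receptor best known from vascular smooth muscle, measured 10.32 with p53 and 7.90 in the negative control, a difference of 2.42, or 5.35-fold. The control value lay 0.52 above the median of all probe sets and the p53 value 2.94 above it, so NOTCH3 went from a level near the middle of the array to its upper part. Of the genes that were not dim, it was the 140th from the highest difference.

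NOTCH1, the receptor with activating mutations in T cell leukaemia and inactivating ones in squamous carcinomas, measured 9.23 with p53 and 7.67 in the negative control, a difference of 1.56, or 2.95-fold. It was the 467th from the highest, with 4.08% of the genes that were not dim at or above it. Its control level lay 0.29 above the median of all probe sets, so the fold rests on a control signal close to the dim range.

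NOTCH2 measured 9.77 with p53 and 9.85 in the negative control, a difference of -0.08. It was well above the median of all probe sets in both arrays. Another probe set reads NOTCH2 together with NOTCH2NLA and NOTCH2NLB, near-identical partial copies of it, and measured 10.73 with p53 and 10.60 in the negative control, a difference of 0.13. Both probe sets were close to 0, in opposite directions, and with an intensity trend removed from the differences the first stood at 0.02, so that the sign of the NOTCH2 difference is not fixed.

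NOTCH4, known mainly from endothelial cells, was listed at 7.63 in both arrays, the same value to every deposited digit. Equal values were common: they were found in 35.9% of all probe sets and in 14.6% of the genes that were not dim. An equal value is therefore given here as listed, and nothing more is read from it. The median difference of the 4 receptors was 0.78, which lies between the 2 that were higher and the 2 that were not and describes neither pair.

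The ligands were set apart by 1 gene. JAG2, a Jagged ligand needed for limb and craniofacial development, measured 11.72 with p53 and 8.31 in the negative control, a difference of 3.41, or 10.6-fold. This was the 38th highest difference of the 11436 genes that were not dim, beside CDKN1A, at 3.49 the 36th. The control value lay 0.93 above the median of all probe sets, so the fold does not rest on a dim control. With p53, JAG2 lay above 95.7% of all probe sets.

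JAG1, the other Jagged ligand, whose loss causes Alagille syndrome, measured 8.68 with p53 and 8.64 in the negative control, a difference of 0.05. The control values of JAG1 and JAG2 lay 1.25 and 0.93 above the median of all probe sets. JAG2 was thus higher with p53 where its paralogue JAG1 differed by less than 0.1 on the log2 scale as deposited and by 0.10 with the intensity trend removed.

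No Delta-like ligand differed by 2-fold. DLL1, the main Delta ligand of the embryo, measured 7.78 with p53 and 7.60 in the negative control, a difference of 0.18, or 1.13-fold. DLL3, a ligand that acts inside the cell to hold the pathway back and that marks neuroendocrine lung tumours, measured 7.26 with p53 and 7.42 in the negative control, a difference of -0.16. It lay below the median in the p53 array and just above it in the control, so it passed the intensity filter through the control array alone. DLL4, the Delta ligand of sprouting vessels, was listed at 6.83 in both arrays and was dim. The 5 ligands had a median difference of 0.05, close to 0 since 4 of the 5 lay between -0.16 and 0.18. DLL4 is counted there at 0 through its equal values, from which nothing is read.

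Markers of the cell types in which NOTCH4, DLL4 and DLL3 are best known were nearly all dim and equal in both arrays. Of 6 endothelial markers, PECAM1, CDH5, VWF, KDR and TEK were dim, CLDN5 stood at 7.85, and all 6 were equal. Of 4 neuroendocrine markers measured, CHGA, SYP and NCAM1 were dim, INSM1 stood at 8.64, and all 4 were equal. Of 4 haematopoietic markers measured, PTPRC, CD3E and CD14 were dim and equal and CD68, also found in lysosomes of other cells, had a difference of -0.38. A dim gene could not be called higher or lower, and nothing is read from an equal value, so these lists are no contrast to the members. Smooth muscle, from which NOTCH3 is best known, had no marker list here. Of its actin genes, ACTA2 measured 11.68 with p53 and 8.43 in the negative control, a difference of 3.25. ACTG2 was dim and equal. Both were picked after their values were seen, and other smooth muscle genes were not read. A change of cell type was not tested.

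NRARP, the feedback inhibitor that Notch switches on, measured 8.51 with p53 and 7.72 in the negative control, a difference of 0.79, or 1.72-fold. It was higher with p53 but short of 2-fold, and 10.8% of the genes that were not dim had a difference at or above it. Its control level lay 0.34 above the median of all probe sets.

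**Figure D2:**
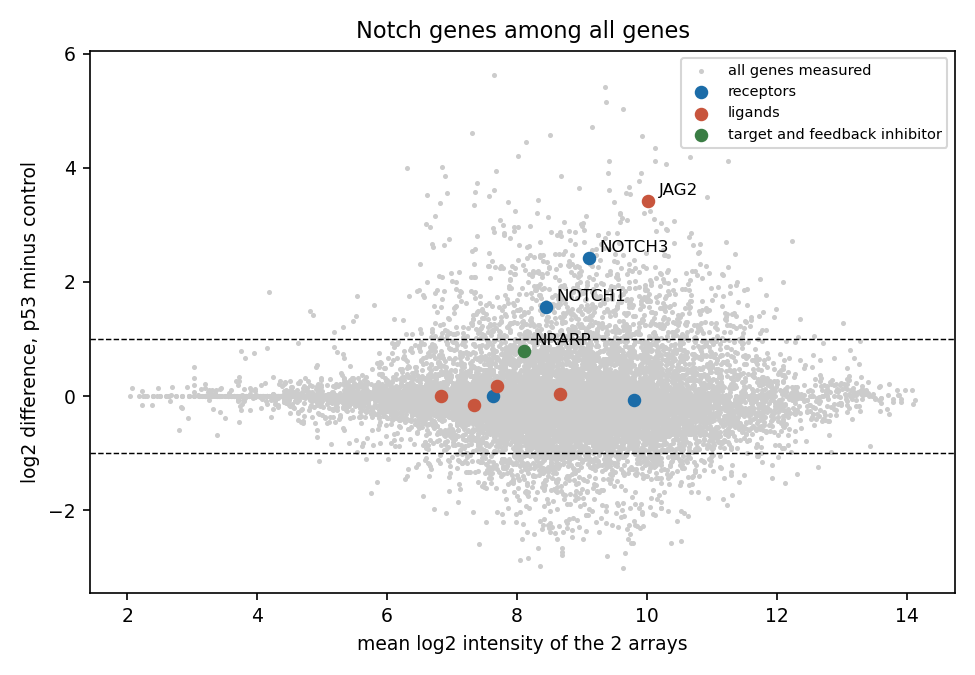
Log2 difference, p53 minus control, against the mean log2 intensity of the 2 arrays for all 18417 genes measured (grey) and the 10 genes (receptors blue, ligands red, NRARP green), with dashed lines at 2-fold. JAG2 at 3.41, NOTCH3 at 2.42 and NOTCH1 at 1.56 lie above the upper line, and NRARP at 0.79 lies just under it.

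The rest of the pathway was read from 6 lists of other genes, 48 of which were measured with a probe set of their own. Of these, 8 were dim. Of the 40 that were not dim, 6 were at least 2-fold higher with p53, none was lower and 34 were neither. Among all genes that were not dim, 8.21% were higher and 5.79% lower. The median difference of the 48 was 0.00, the same as over all genes measured, and 12 of the 48 were equal in both arrays. Listed genes that had no such probe set are not analysed here.

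The HES and HEY genes, the best known targets of Notch, differed among themselves. Of 7 measured, 6 were not dim, and among these only HEYL passed 2-fold, upward. Over all genes that were not dim, 8.21% passed it upward and 5.79% downward. HEYL measured 9.23 with p53 and 7.29 in the negative control, a difference of 1.94, or 3.83-fold. Its control value was below the median, so it passed the filter through the p53 array alone. HES1, the target used most often as a readout of the pathway, measured 8.79 with p53 and 8.87 in the negative control, a difference of -0.08. HES4 and HES5 were equal in both arrays, HES7 differed by 0.05 and HEY2 by -0.12, and HEY1 was dim and equal. HES1, HES7 and HEY2 thus lay between -0.12 and 0.05, and nothing is read from the equal values of HES4, HES5 and HEY1.

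Of the 6 genes that add or extend sugars on the Notch extracellular part, 5 were not dim. Of those 5, 3 were higher by 2-fold or more and none was lower, beside 8.21% and 5.79% of all genes that were not dim. RFNG, one of the Fringe glycosyltransferases that tune which ligand a receptor answers to, measured 9.51 with p53 and 8.16 in the negative control, a difference of 1.35, or 2.55-fold. LFNG, another Fringe gene, stood at 8.29 and 7.25, a difference of 1.03, and passed the filter through the p53 array alone. The 2-fold call of LFNG depended on the scale: with an offset of 32 added before log2 its difference was 0.90. MFNG, the remaining Fringe gene, was dim. EOGT, which adds N-acetylglucosamine to the repeats of Notch, stood at 10.24 and 9.07, a difference of 1.18, or 2.26-fold. POFUT1 and POGLUT1, which add the fucose and the glucose, had differences of -0.34 and 0.19.

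Of 13 regulators of ubiquitin transfer and endocytosis, 12 were not dim, and 1 of the 12 passed 2-fold, upward. The shares over all genes that were not dim were 8.21% upward and 5.79% downward. FBXW7, the ubiquitin ligase subunit that marks the Notch intracellular part for destruction and is a known p53 target, measured 9.56 with p53 and 7.84 in the negative control, a difference of 1.72, or 3.30-fold. Apart from FBXW7, 11 of the regulators were neither higher nor lower and 1 was dim. Their differences ran from -0.47 for NUMB to 0.88 for MIB2, which stood at 9.10 with p53 and 8.22 in the negative control. Of 7 genes of the nuclear complex and its corepressors, 6 were not dim. Of those 6, 1 was higher and none was lower, beside the same 8.21% and 5.79%. It was KAT2B, an acetyltransferase that joins the active complex. KAT2B measured 11.18 with p53 and 9.11 in the negative control, a difference of 2.07, or 4.19-fold. RBPJ, the DNA-binding core, stood at 9.68 and 10.12, a difference of -0.43, and MAML2, a coactivator, at 8.27 and 8.76, the lowest of the list at -0.49.

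The processing enzymes did not pass 2-fold. Of 8 measured, PSEN2, a catalytic subunit of gamma-secretase, had the largest difference, at 8.67 with p53 and 7.69 in the negative control, 0.97 as deposited and 1.01 with the intensity trend removed, where it was past 2-fold. NCSTN and PSENEN, further subunits, had differences of -0.34 and -0.33. ADAM10, the main protease of the first cut, stood at 11.59 and 11.68. Among 7 non-canonical ligands none was 2-fold different. DLK2 had the largest difference at 0.34, MFAP2 stood at -0.29 and DLK1 at 0.15.

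**Figure D3:**
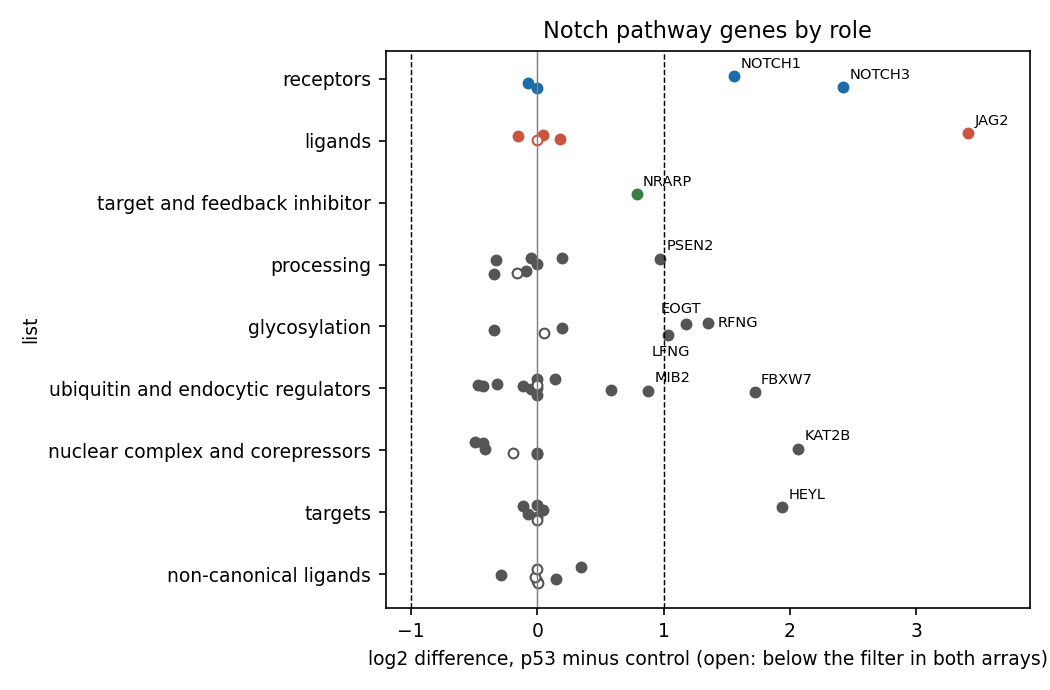
Log2 difference, p53 minus control, of each measured gene of the pathway, 1 row per list, with filled points for genes above the intensity filter, open points for dim genes and dashed lines at 2-fold. No gene lies left of the lower line, and the points right of the upper line are NOTCH1, NOTCH3, JAG2, LFNG, EOGT, RFNG, FBXW7, KAT2B and HEYL.

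The nearest measured protein-coding genes on either side of each member, by order in the RefSeq table, were read to see whether the 3 higher genes stood alone on their chromosomes. The neighbours of NOTCH3 were HACL2, at 0.01, and EPHX3, dim and equal. Those of NOTCH1 were SEC16A, at 0.36, and EGFL7, at 8.15 in both arrays. JAG2 lay between GPR132, dim and equal, and NUDT14, a nucleotide sugar hydrolase gene, which measured 9.88 with p53 and 8.65 in the negative control, a difference of 1.24. Of the 20 neighbours of the 10 members, dim ones included, 2 were at least 2-fold higher, NUDT14 and CHAC1, the latter beside DLL4. None was lower. Over all genes measured, dim ones included, 5.22% were at least 2-fold higher and 3.7% lower, and over those not dim 8.21% and 5.79%. These neighbours were read after the values of the members were seen.

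The differences of the members changed little with the processing. JAG2 ran from 3.29 to 3.51, NOTCH3 from 2.27 to 2.50, NOTCH1 from 1.42 to 1.61 and NRARP from 0.70 to 0.82 over the deposited values and 6 other treatments of them. The largest departures came from the offset of 32, which lowers differences of weak signals, and from the removal of the intensity trend. These settings reprocess the same 2 arrays and say nothing of how another culture would read.

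**Figure D4:**
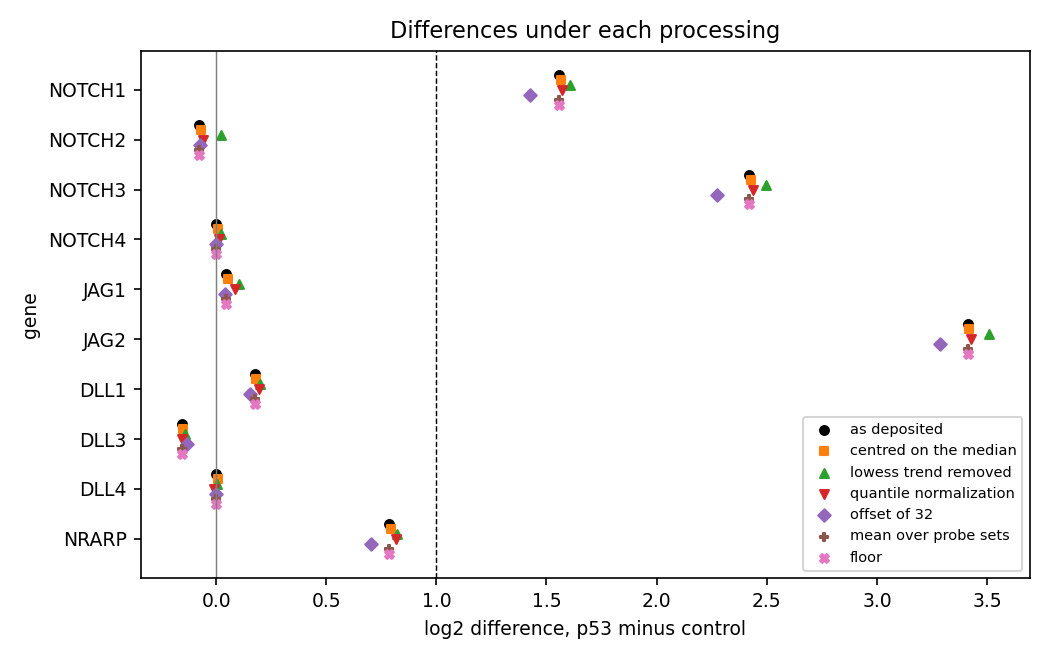
Log2 difference, p53 minus control, of each of the 10 genes as deposited and under 6 other treatments of the values, with a dashed line at 2-fold. JAG2, NOTCH3 and NOTCH1 stay right of the line under each, NRARP stays left of it, and the remaining 6 stay within 0.20 of 0. Probe set means and the floor repeat the deposited values.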

How the data were processed

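Trizol was used to extract total RNA, which was biotin-labelled for Affymetrix arrays, 1 per group, per the labels' protocols. The deposited values are log2 intensities made by the authors with RMA, per the submitters' processing notes. The log2 scale was inferred from their range, 1.41 to 14.68. Neither software nor build is given in the sources used here. Sorted values of the 2 arrays differed by at most 0.19, so a change in total RNA cannot be read.

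Of 33297 probe sets, 19460 with 1 gene symbol in GEO's platform annotation were used and symbols checked by gene identifier against RefSeq. The probe set with the highest mean stood for a gene. Genes were kept where the higher array reached 7.38, the median. A 2-fold difference is a rule of size, not a test. Named were all members, and from each pathway list the 2-fold different genes or else the 3 with the largest absolute difference. Other names illustrate a list and were picked after their values were seen. Members and lists were chosen with earlier results of these data known. Alternatives were thresholds, filters, centring, lowess (span 0.3), quantile normalization, an offset of 32, probe set means and a floor at 5.97. With 1 array per group, the number of arrays limits the precision. Python 3.11.15, numpy 2.4.6, pandas 2.3.3, statsmodels 0.14.6 and matplotlib 3.10.9 were used.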

Additional observations from a re-analysis of the deposited data

How the results depend on the processing

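The 3 members at least 2-fold higher with p53 (JAG2, NOTCH3 and NOTCH1) were 3 under each filter and each rescaling, 4 at 1.5-fold and 2 at 3-fold, and none was lower under any of them. At 2-fold, the share of all genes that was higher ran from 5.22% with no filter to 11.8% under a 75th percentile filter. The share lower ran from 3.7% to 7.78% under the same 2 filters. At 1.5-fold 14.4% were higher and 15.5% lower, and at 3-fold 3.93% and 1.53%. Of the 40 other pathway genes kept, 6 were at least 2-fold higher, beside 8.21% of all kept genes. The count was 3 at a threshold of 3-fold, which fewer genes pass (3.93% of all kept genes). It was 8 at 1.5-fold (14.4%), 7 with the lowess trend removed (9.02%), 5 with an offset of 32 (7.31%) and 5 under a 75th percentile filter (11.8%), and none was lower under any of them. For 22 named genes under 6 settings, 132 differences in all, none moved by more than 1.5-fold. Probe set means and the floor returned the deposited differences of these genes, and centring shifted each by the same 0.0071. Only the lowess trend, quantile normalization and the offset could thus change 1 gene relative to another. No paired analysis was possible because each group has 1 array, and for the same reason no array could be left out. A control signal within 0.34 of 7.38 limits the folds of NOTCH1, NRARP, PSEN2, LFNG and HEYL.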
